A study of Mus musculus with 8 samples.

Results

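Transcripts of 10 subunits of the BAF chromatin remodelling complex were followed in RNA recovered with an antibody against DCP1A and in input RNA of the mouse ovary. The 10 genes, Smarcd3, Smarcd2, Smarcd1, Smarcb1, Arid1a, Arid1b, Smarca4, Smarca2, Smarcc1 and Smarcc2, were taken by symbol from a deposited table of estimated counts for 23107 genes. All 10 were in the table, and all 10 were among the 14667 genes that passed the filter on low counts. Smarcd3 was chosen because it had been higher in RIP than in input in an earlier look at the same libraries. The RIP to input values of the 10 genes are therefore a description and support nothing by themselves.

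The samples were 4 DCP1A RIP libraries and 4 input libraries from ovarian cortex at postnatal day 8, made with a stranded kit for total RNA. RNA immunoprecipitation (RIP) recovers a protein with the RNA attached to it, and DCP1A is a co-activator of mRNA decapping found in processing bodies, the cytoplasmic granules in which mRNA is stored or degraded. The series asked which RNAs associate with DCP1A in primary oocytes. Strain, genotype, treatment, pooling of animals and the origin of the replicates are not given in the labels, so the spread between libraries may be technical, and no library from a control antibody was analysed here.

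BAF, the mammalian form of the SWI/SNF complex, uses ATP to slide or evict nucleosomes and so opens enhancers and promoters to transcription factors. The canonical form holds an ATPase (Smarca4 or Smarca2), a scaffold of Smarcc proteins, the core subunit Smarcb1, an Arid1 subunit and a member of the Smarcd family, while the PBAF and ncBAF forms differ in some of these positions. Because paralogs replace each other at several positions, cell types differ in the composition of their complexes. Smarcd3 is the family member best known from heart and skeletal muscle development, Smarcd2 from granulocyte maturation, and Smarcd1 is widely expressed.

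RIP libraries held 16325387 to 21269891 counts and input libraries 13098153 to 25757620. Levels below are counts per 1000000 (CPM) scaled with TMM factors, which compare a gene between libraries but not with other genes, since transcript lengths were not used here. The markers of ovarian cells were present: the oocyte gene Zp3 was at 371 ± 54 CPM in RIP and 327 ± 199 CPM in input, and the granulosa gene Foxl2 at 562 ± 122 and 566 ± 180 CPM in RIP and input (SD, n = 4 each). Of 6 heart and skeletal muscle markers, Actc1 and Myl1 had 0 counts in all 8 libraries. Tnnt2 was at 0 in every RIP library and averaged 0.13 CPM in input. Myh6 averaged 0.58 CPM in RIP and 2.35 CPM in input, with 8.07 CPM in input 2, and Acta1 averaged 0.46 CPM in RIP and 0.74 CPM in input. Ttn averaged 234 CPM in RIP and 267 CPM in input and made up nearly all of the list's sum. In bulk tissue, fewer cells of a type and less RNA per cell cannot be told apart.

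Among the Smarcd paralogs, Smarcd3 was higher in every RIP library than in every input library, Smarcd2 was higher on average with slight overlap, and the means of Smarcd1 were close. Smarcd3 (mm10 chromosome 5, 24592622 to 24624456) had 51.3, 56.7, 33.5 and 29.1 CPM in RIP libraries 1 to 4, against 15.1, 15.96, 18.5 and 20.7 CPM in input libraries 1 to 4. The lowest RIP library thus lay above the highest input library, and RIP 1 and RIP 2 lay well above RIP 3 and RIP 4. These levels rested on 612 to 1192 counts per library in RIP and 180 to 567 in input. The means were 42.7 ± 13.4 CPM in RIP and 17.6 ± 2.5 CPM in input (SD, n = 4 each), a ratio of 2.43 and a fitted log2 fold change of 1.28 ± 0.32 (SE). Of all tested genes, 96.7% had a lower log2 fold change.

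Smarcd2 (chromosome 11, 106263171 to 106272998) had 102.5, 56.8, 68.1 and 52.6 CPM in RIP libraries 1 to 4, against 43.6, 54.3, 32.9 and 42.4 CPM in input libraries 1 to 4. RIP 4 lay below input 2, and RIP 1 stood highest, so the groups overlapped at their edges. The means of Smarcd2 were 70.0 ± 22.6 CPM in RIP and 43.3 ± 8.8 CPM in input (SD, n = 4 each), with a log2 fold change of 0.69 ± 0.29 (SE), or 0.45 without RIP 1. Smarcd1 (chromosome 15, 99702287 to 99713995) had 130.6, 88.7, 107.2 and 99.97 CPM in RIP libraries 1 to 4, against 97.1, 138.1, 101.1 and 98.5 CPM in input libraries 1 to 4. Input 2 was its highest library and RIP 2 its lowest, so the groups overlapped, and its log2 fold change was -0.03 ± 0.24 (SE). The difference between the log2 fold change of Smarcd3 and the mean of its paralogs was 0.95, and it was 1.502 within libraries numbered 1 and 2 and 0.31 within libraries numbered 3 and 4.

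**Figure D1:**
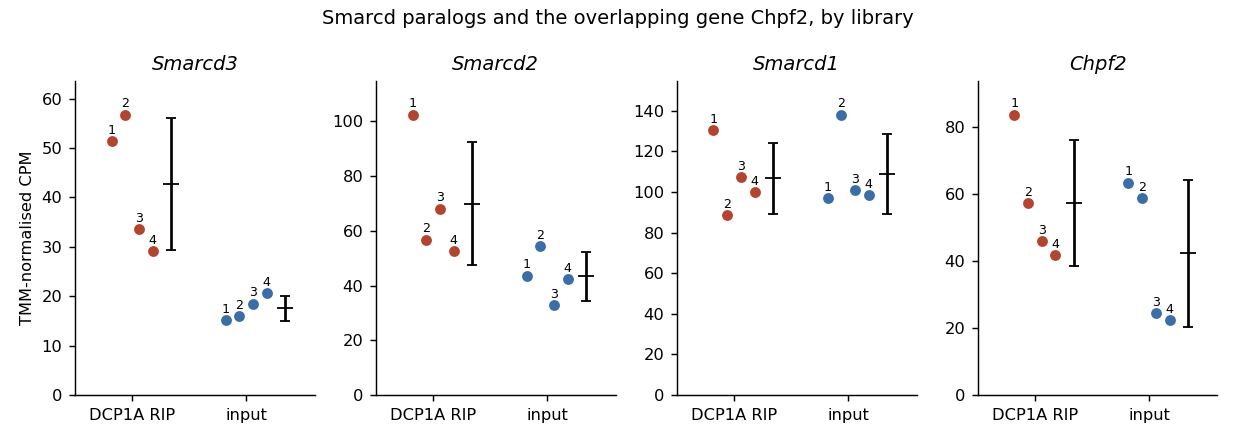
Level in TMM-normalised CPM (vertical axis, from 0, scaled separately per gene) of Smarcd3, Smarcd2, Smarcd1 and Chpf2 in 4 DCP1A RIP libraries and 4 input libraries, with points numbered by library and bars showing mean ± SD. The RIP points of Smarcd3 sit between 29.1 and 56.7 CPM, above input points between 15.1 and 20.7 CPM, while the points of the other genes overlap.

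The share of Smarcd3 within its family needs no scaling between libraries. Of the summed counts of Smarcd1, Smarcd2 and Smarcd3, Smarcd3 took 18.1%, 28.1%, 16.1% and 16.02% in RIP libraries 1 to 4, against 9.71%, 7.66%, 12.1% and 12.8% in input libraries 1 to 4. Every RIP share was above every input share, and the nearest Wilson 95% intervals, 14.9 to 17.2% in RIP 4 and 11.8 to 13.8% in input 4, did not overlap. The intervals cover counting error only. The share averaged 19.5 ± 5.8% in RIP and 10.6 ± 2.4% in input (SD, n = 4 each). The difference of 8.97 percentage points was 6.14 points without RIP 2, which had the highest share.

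Smarcd1 filled less of the family in RIP, at 49.0 ± 5.1% against 64.0 ± 2.7% in input, and Smarcd2 filled 31.4 ± 3.6% in RIP and 25.5 ± 2.7% in input (SD, n = 4 each). Neither pair of groups overlapped, although Smarcd2 in RIP 2 (28.1%) and in input 1 (28.0%) nearly met, and their intervals overlapped. The family shares make up a whole, so the lower Smarcd1 share follows from the higher shares of its paralogs. The level of Smarcd1 itself averaged 106.6 ± 17.7 CPM in RIP and 108.7 ± 19.7 CPM in input (SD, n = 4 each). Set against Smarcd2 alone, Smarcd3 took 33.0 to 49.98% of the counts of both genes in RIP and 22.7 to 36.0% in input. These ranges overlapped, because inputs 3 and 4 (36.0% and 32.8%) lay close to RIP 1, RIP 3 and RIP 4 (33.4%, 33.0% and 35.6%). Set against Smarcd1 alone, Smarcd3 took 22.5 to 39.0% of the counts of both genes in RIP and 10.4 to 17.3% in input, without overlap.

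**Figure D2:**
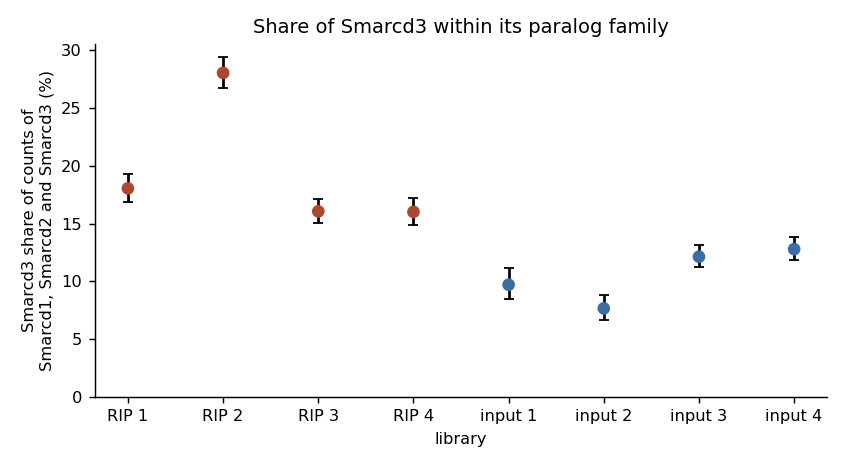
Share of Smarcd3 in the summed counts of Smarcd1, Smarcd2 and Smarcd3 (vertical axis, percent) in each DCP1A RIP and input library (horizontal axis), with Wilson 95% intervals as bars. RIP shares range from 16.02% to 28.1% and input shares from 7.66% to 12.8%.

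The annotated span of Smarcd3 overlaps that of Chpf2, a chondroitin polymerizing factor gene on the opposite strand (chromosome 5, 24586744 to 24594398), for 1777 bp. In RefSeq annotation of GRCm38.p6, Chpf2 lies on the plus strand and Smarcd3 on the minus strand, so their 3' ends meet tail to tail, over 5.58% of the Smarcd3 span and 23.2% of the Chpf2 span. The sources used here do not say whether counting used strand, so reads from the shared stretch may be assigned to either gene and the Smarcd3 level is uncertain to that extent. Chpf2 had 83.6, 57.3, 45.9 and 41.8 CPM in RIP libraries 1 to 4, against 63.3, 58.8, 24.4 and 22.3 CPM in input libraries 1 to 4. Its groups overlapped, and inputs 3 and 4 stood below all other libraries. The log2 fold change of Chpf2 was 0.44 ± 0.37 (SE), and its part in the Smarcd3 values was not tested. Smarcd1 and Smarcd2 overlap no other gene of the count table.

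The core subunit Smarcb1, which contacts the nucleosome, was the other member whose groups did not overlap. Smarcb1 (chromosome 10, 75896769 to 75921614) had 207.0, 179.7, 168.3 and 153.9 CPM in RIP libraries 1 to 4, against 131.9, 142.3, 113.6 and 147.8 CPM in input libraries 1 to 4. The gap between RIP 4 and input 4 was narrow, and the log2 fold change was 0.40 ± 0.22 (SE). In all, 2 of the 10 members had every RIP library above every input library and 0 had every RIP library below, beside backgrounds of 2.77% and 2.52% of the 14667 tested genes. With library size alone as the scaling, Smarcd2 joined Smarcd3 and Smarcb1.

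The Arid1 subunits, large DNA-binding proteins that mark the canonical BAF complex, were a little higher on average in RIP. Arid1a (chromosome 4, 133679008 to 133756769) had 567.0, 553.4, 507.0 and 613.0 CPM in RIP libraries 1 to 4, against 411.7, 371.1, 371.3 and 624.8 CPM in input libraries 1 to 4. Input 4 lay above every RIP library while the other inputs lay below all of them, and the log2 fold change was 0.33 ± 0.23 (SE), or 0.55 without input 4. Arid1b (chromosome 17, 4994297 to 5347656) had 407.4, 438.8, 422.4 and 468.1 CPM in RIP libraries 1 to 4, against 362.5, 288.4, 343.9 and 423.1 CPM in input libraries 1 to 4. Again only input 4 reached into the RIP range, and the log2 fold change was 0.29 ± 0.21 (SE). The Arid1b share of the counts of both Arid1 genes was 43.7 ± 1.5% in RIP and 44.8 ± 3.4% in input (SD, n = 4 each), and the groups overlapped.

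Neither ATPase gene was separated between RIP and input. Smarca4, the gene of BRG1 (chromosome 9, 21616106 to 21704230), had 279.3, 309.6, 277.4 and 367.9 CPM in RIP libraries 1 to 4, against 184.5, 138.1, 362.8 and 417.4 CPM in input libraries 1 to 4. Smarca2, the gene of BRM (chromosome 19, 26605073 to 26778321), had 67.1, 70.7, 80.2 and 142.8 CPM in RIP libraries 1 to 4, against 80.7, 53.7, 234.9 and 157.3 CPM in input libraries 1 to 4. For both genes inputs 3 and 4 stood far above inputs 1 and 2, and RIP 4 stood highest within RIP. RIP 1 to 3 lay between the pairs of inputs for Smarca4, and within the range of inputs 1 and 2 for Smarca2. The log2 fold changes were 0.16 ± 0.31 for Smarca4 and -0.55 ± 0.39 for Smarca2 (SE). Both values moved with single libraries: that of Smarca4 ran from -0.059 without input 2 to 0.44 without input 4, and that of Smarca2 from -0.85 without RIP 4 to -0.099 without input 3. With libraries 1 and 2 alone they were 0.87 ± 0.28 for Smarca4 and 0.035 ± 0.35 for Smarca2, and with libraries 3 and 4 alone -0.28 ± 0.27 for Smarca4 and -0.82 ± 0.33 for Smarca2 (SE). Smarca2 took 22.1 ± 4.3% of the counts of both ATPase genes in RIP and 31.3 ± 5.5% in input (SD, n = 4 each). The groups met at RIP 4 (28.0%), input 2 (28.0%) and input 4 (27.4%).

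The scaffold genes followed the course of Smarca2. Smarcc1 (chromosome 9, 110132024 to 110240178) had 107.9, 138.5, 140.7 and 218.5 CPM in RIP libraries 1 to 4, against 110.6, 103.3, 366.0 and 232.3 CPM in input libraries 1 to 4. Smarcc2 (chromosome 10, 128459182 to 128490591) had 112.9, 145.1, 145.4 and 211.4 CPM in RIP libraries 1 to 4, against 103.3, 115.1, 249.8 and 238.5 CPM in input libraries 1 to 4. Every RIP library of Smarcc2 lay below inputs 3 and 4, and all but RIP 1 lay above inputs 1 and 2. The log2 fold changes were -0.42 ± 0.37 for Smarcc1 and -0.20 ± 0.31 for Smarcc2 (SE). Without input 3 these values became 0.035 for Smarcc1 and 0.022 for Smarcc2, and without RIP 4 they were -0.65 and -0.39. With libraries 1 and 2 alone they were 0.20 and 0.24, and with libraries 3 and 4 alone -0.74 and -0.46. The Smarcc1 share of the counts of both scaffold genes was 49.4 ± 0.9% in RIP and 52.0 ± 5.3% in input (SD, n = 4 each), with input 3 highest at 59.4%.

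Inputs differed from each other more than RIP from input for the ATPase and scaffold genes. The mean of inputs 3 and 4 over that of inputs 1 and 2 was 2.92 for Smarca2, 2.80 for Smarcc1, 2.42 for Smarca4 and 2.24 for Smarcc2, and the median over tested genes was 1.03. The same ratio lay between 0.77 and 1.27 for the other 6 members, with Smarcd3 at 1.26. The highest over the lowest library was 2.13 in RIP and 4.38 in input for Smarca2, 1.33 in RIP and 3.02 in input for Smarca4, and 1.15 in RIP and 1.47 in input for Arid1b. It was larger in RIP than in input for Smarcd3 (1.95 in RIP and 1.37 in input), Smarcd2 (1.95 in RIP and 1.65 in input), Smarcd1 (1.47 in RIP and 1.42 in input) and Smarcb1 (1.345 in RIP and 1.301 in input). Over tested genes, the highest over the lowest library had a median of 2.00 in RIP and 2.69 in input. No label names a batch, and the grouping of libraries by number was known from an earlier look at the data.

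Cell type markers differed between the same libraries. The summed level of 8 granulosa markers was 2119, 1910, 1306 and 1402 CPM in RIP libraries 1 to 4, against 1948, 2484, 1095 and 1131 CPM in input libraries 1 to 4. It was thus higher in libraries 1 and 2 than in libraries 3 and 4 of both groups. Foxl2, Inha, Amh and Amhr2 each had this order in both groups, Fst and Fshr in input only, and Kitl and Nr5a2 in neither group. Smarcd3 followed this order within RIP and the opposite order within input, and the ATPase and scaffold genes were higher in inputs 3 and 4, where the sum was lowest, than in inputs 1 and 2. The sum of 7 stroma and theca markers had the same order, with 2552, 1996, 1670 and 1857 CPM in RIP libraries 1 to 4, against 2266, 2318, 1752 and 1683 CPM in input libraries 1 to 4. Most of this sum was Col1a1, with a mean of 1654 CPM in RIP and 1513 CPM in input, so the order was largely that of Col1a1. Pdgfra, also listed, had the opposite order in both groups. The 10 oocyte markers summed to 1308 to 1672 CPM in RIP and 1173 to 1896 CPM in input, and the 5 surface epithelium markers to 158 to 241 CPM in RIP and 185 to 240 CPM in input. The 4 endothelial markers summed to 59.9 to 96.9 CPM in RIP and 45.2 to 96.8 CPM in input, and the 4 smooth muscle markers to 36.4 to 78.9 CPM in RIP and 34.5 to 94.4 CPM in input. The 5 blood and immune markers summed to 70.0 to 132 CPM in RIP and 42.8 to 286 CPM in input, and the 6 heart and skeletal muscle markers to 89.5 to 342 CPM in RIP and 108 to 474 CPM in input. RIP and input overlapped for every one of these lists, and their part in the values of the BAF genes was not tested.

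The 10 transcripts shared their course over the libraries to different degrees. Likeness was measured as the root-mean-square difference of log2 CPM over the 8 libraries after centring each gene on its mean, so that 0 means the same course. Arid1a and Arid1b were the closest members at 0.14, followed by Smarca2 with Smarcc1 at 0.17 and Smarcc1 with Smarcc2 at 0.21. Smarcd3 was about equally near to its paralog Smarcd2 (0.4876) and to Smarcb1 (0.4882), while its other paralog Smarcd1 was at 0.74. Of the other tested genes with a named symbol, 346 were nearer to Smarcd3 than Smarcd2 was. The member farthest from Smarcd3 was Smarca2 at 1.11, and the median over tested genes with a named symbol was 0.89.

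**Figure D3:**
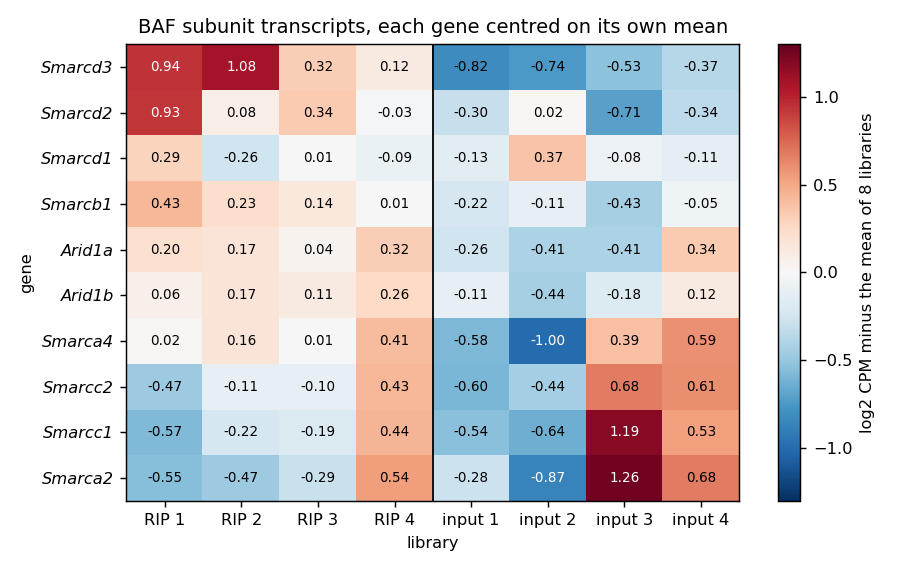
Log2 CPM of each of the 10 subunit genes (rows) in each library (columns, RIP left of the line and input right of it), minus the gene's mean over 8 libraries, as colour and printed value. Smarcd3 is positive in all 4 RIP libraries and negative in all 4 inputs, while Smarca2, Smarcc1, Smarcc2 and Smarca4 are negative in inputs 1 and 2 and positive in inputs 3 and 4.

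The genes whose course over the 8 libraries was most like that of Smarcd3 were Tmem41a (root-mean-square difference 0.15), Ccdc22 (0.21), Lrrc16b (0.22), Tmem150a (0.24) and Atg16l2 (0.26). Ccdc22, a subunit of an endosomal sorting complex, had 45.4, 36.9, 26.5 and 24.2 CPM in RIP libraries 1 to 4, against 15.0, 13.7, 17.9 and 22.0 CPM in input libraries 1 to 4. Like Smarcd3, it was highest in RIP 1 and RIP 2 and did not overlap between the groups. Tmem41a averaged 9.98 ± 3.24 CPM in RIP and 4.75 ± 0.33 CPM in input, and Atg16l2 averaged 16.8 ± 4.4 CPM in RIP and 9.40 ± 0.92 CPM in input (SD, n = 4 each). These genes were picked by likeness to a profile that differs between the groups, so their group difference follows from the choice.

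Across the whole table, the quasi-likelihood test of edgeR, adjusted by the Benjamini-Hochberg method, called 0 genes higher and 6 lower in RIP at an adjusted p under 0.05, or 0.0409% of 14667. Of the 10 members 0 were called, with adjusted p from 0.376 (Smarcd3) to 0.984 (Smarcd1), and 2 (Smarcd3 and Smarcd2) were higher at an unadjusted p under 0.05, beside 3.15% of tested genes. DESeq2 called 1 member, Smarcd3 (adjusted p = 0.0365), beside 0.089% of its genes called higher. With edgeR, the log2 fold change of Smarcd3 was 1.79 ± 0.45 (SE) within libraries numbered 1 and 2 (adjusted p = 0.159) and 0.68 ± 0.33 within libraries numbered 3 and 4 (adjusted p = 0.529). The median log2 fold change was 0.23 over the 10 members and -0.02 over all tested genes, and 6 members had a positive value, where 48.3% of tested genes had.

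None of the other BAF subunits tested reached the log2 fold change of Smarcd3. Of 20 further subunits of the BAF, PBAF and ncBAF forms, 19 were in the table and 18 were tested, and the neuronal actin-like gene Actl6b had 0 counts in every library. By edgeR's test 0 were called in either direction, beside 0.0409% of all tested genes, and DESeq2 and limma voom also called 0. At an unadjusted p under 0.05, 0 were higher and 0 lower, beside 3.15% and 4.28% of all tested genes, shares that amount to few genes in a list of this size. The median log2 fold change was -0.06, with 9 positive and 9 negative. The highest value was that of Bcl11b (0.78 ± 0.83), a transcription factor that joins some BAF complexes. Bcl11b had at most 8.23 CPM in any library. Dpf1 (0.75 ± 0.43), a PHD finger subunit of neuronal BAF, followed. Bcl7c (0.26 ± 0.40) and the ncBAF scaffold Gltscr1, now named Bicra (0.18 ± 0.29), came next (SE, n = 4 each).

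Phf10, Pbrm1, Brd7 and Smarce1 had the lowest values among these 18 genes. The PHD finger gene Phf10 had a log2 fold change of -0.58 ± 0.35, the polybromo subunit Pbrm1 one of -0.57 ± 0.29, the bromodomain subunit Brd7 one of -0.45 ± 0.32, and the HMG-box core subunit Smarce1 one of -0.45 ± 0.36 (SE, n = 4 each). Pbrm1 had 78.4, 78.7, 100.5 and 122.1 CPM in RIP libraries 1 to 4, against 142.5, 83.8, 217.2 and 120.3 CPM in input libraries 1 to 4. RIP 3 and RIP 4 of Pbrm1 lay within the input range. Smarce1 stood out in input 3 at 180.8 CPM, as Smarca2 and Smarcc1 did, against 51.9 to 95.1 CPM in RIP. Its inputs 1 and 2 were at 47.3 and 69.4 CPM. Phf10 and Brd7 were also highest in input 3, at 78.4 and 117.1 CPM. Inputs 1 and 2 of Brd7 (43.7 and 44.2 CPM) lay below every RIP library (44.6 to 56.2 CPM). Those of Phf10 (25.5 and 38.8 CPM) lay within the RIP range (22.6 to 40.9 CPM). Ss18, picked out after its values were seen, was the subunit of this list with every RIP library (49.4 to 78.7 CPM) below every input library (79.3 to 90.3 CPM), beside the background of 2.52%.

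**Figure D4:**
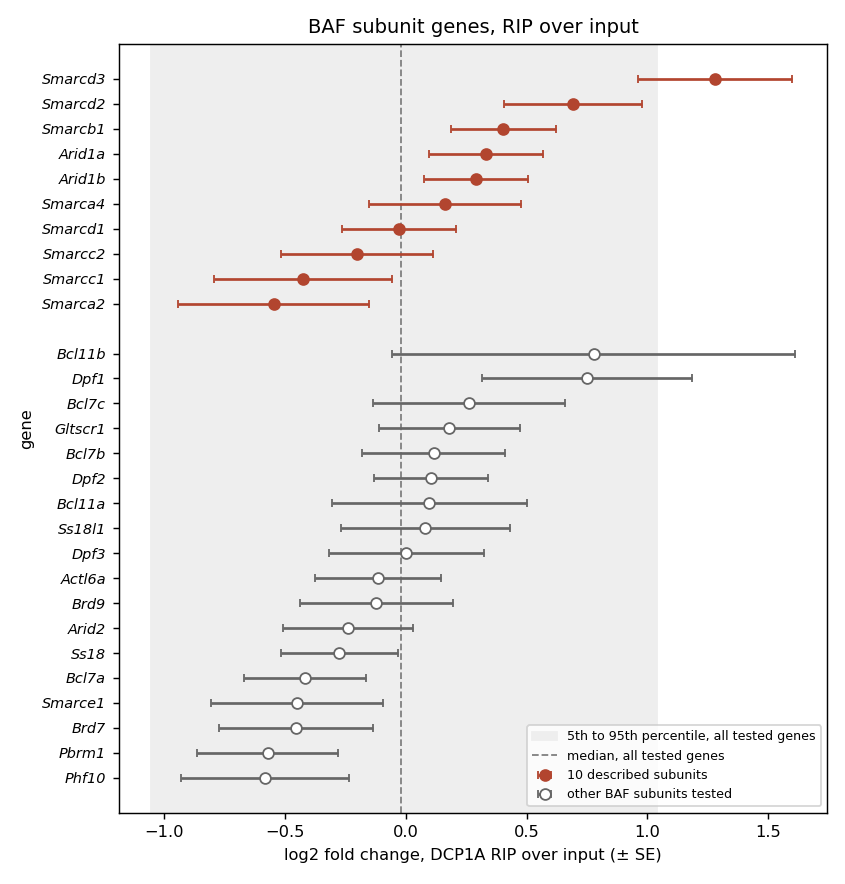
Log2 fold change of RIP over input (horizontal axis, points with SE bars) for the 10 described subunit genes (filled, top) and 18 other tested BAF subunit genes (open, below), with the 5th to 95th percentile of all tested genes shaded and their median dashed. Smarcd3, at 1.28, is the only point beyond the shaded range of -1.05 to 1.04.

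Other remodeller families, listed beside BAF, had 0 genes called by edgeR, DESeq2 or limma voom. All 11 ISWI genes had negative log2 fold changes with TMM, RLE or library size scaling (median -0.32 with TMM). Over all tested genes, 7578 of 14667 were negative with TMM. Smarca1, the ISWI ATPase also called SNF2L, was at -0.67 ± 0.30 and Baz1a at -0.99 ± 0.50 (SE, n = 4 each). Both were highest in input 3 (207 and 38.0 CPM), and values without single libraries are not given for this list. The 15 CHD and NuRD genes had a median of 0.05, with the NuRD subunit Gatad2a at 0.57 ± 0.22 and Chd5 at 2.25 ± 1.49, where Chd5 had at most 4.21 CPM in any library. The 20 tested genes of INO80, SRCAP and TIP60 complexes had a median of 0.14, with Actr6 at -1.26 ± 0.49 and the TIP60 scaffold Trrap at 0.51 ± 0.24. At an unadjusted p under 0.05, 1 gene was higher (Gatad2a) and 2 were lower (Smarca1 and Actr6) over these families, beside 3.15% and 4.28% of all tested genes.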

How the data were processed

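Estimated counts (expected counts) per gene were deposited by the authors for 8 libraries of ovarian cortex RNA, with at most 1.85% of values not whole at a tolerance of 1e-09. Per the labels' protocols, DCP1A-bound RNA came from a Magna RIP kit and libraries from a stranded total RNA kit. The build was mm10, per the submitters' processing notes, and no source used here gives the aligner, counter or strand setting. Values were rounded to whole numbers. The design assumed counts, and the same test was kept.

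The members, lists, library groupings and tests were chosen with earlier results of these data known. The comparison ran in edgeR 4.0.16 (R 4.3.3): TMM factors, filterByExpr (minimum count 10, total 15), a robust quasi-likelihood fit without a block, and Benjamini-Hochberg adjustment over 14667 genes with a threshold of 0.05. The SE is the size of the log2 fold change over the root of F. Log2 CPM used a prior count of 2. The test was tested on simulated data, with changes placed in genes at or above the median level. It recovered 17 of 50 genes changed 2-fold and 48 of 50 changed 4-fold, with 10 false calls. The same simulated data also held 50 genes changed 8-fold and 50 changed 16-fold. Simulated spread depended on level alone, with no grouping of libraries by number, so recovery in the real libraries may be lower. Positions and strands came from RefSeq tables of GRCm38.p6, the patch release of mm10. The 10 members matched by symbol. Of the further BAF names, 18 matched by symbol and 1 by synonym, and Bicral and Srcap were not analysed here. Named beside the members were the 4 highest and 4 lowest other BAF genes, the 2 lowest p of each remodeller list, and the 5 genes most like Smarcd3, without predicted models. Alternatives were RLE or library size scaling, DESeq2 1.42.0, limma 3.58.1 voom with sample weights, other low-count filters (none, or 50 counts in 4 libraries), blocks, libraries 1 and 2 or 3 and 4 alone, and leaving out each library.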

Additional observations from a re-analysis of the deposited data

Results flagged for a closer look

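A library far from the other 3 of its group was looked for in 36 groups of 4 values (10 genes and 8 paralog shares, in RIP and in input), with Dixon's 95% critical value for the gap over the range. About 1 in 20 groups passes by chance. Smarcd1 stood out as high in input 2 at 138 CPM, and Arid1a in input 4 at 625 CPM. Smarcd3 stood out in RIP 2, at 28.1% of the Smarcd family and at 49.98% of the counts of Smarcd2 and Smarcd3. The Smarcc1 share of the scaffold genes stood out in RIP 4 at 50.8%, within a RIP range of only 48.8 to 50.8%.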

How the results depend on the processing

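Smarcd3 kept a positive log2 fold change in all 18 alternatives run (0.68 to 1.79), as did Smarcd2, Smarcb1, Arid1a and Arid1b. Smarcd3 was chosen as higher in RIP in these same libraries, and its groups did not overlap. Its sign therefore follows largely from that choice. BAF members called numbered 0 in 17 alternatives and 1 with DESeq2; other BAF genes called numbered 0 in all 18. Whole-table calls were 6 in the reported fit, 56 with DESeq2 (13 higher, 43 lower), 20 with limma voom, 55 with the replicate number as a block (13 higher, 42 lower), 55 with the number group as a block, 27 within libraries 1 and 2, and 4 to 17 when 1 library was left out (17 without RIP 1, 15 without input 3). The Smarcd3 difference from its paralogs was 1.502 with numbers 1 and 2 alone, 0.31 with numbers 3 and 4 alone, and 0.70 to 1.06 without 1 library; the share difference was 6.14 to 10.1 points. Smarcd1 turned positive without RIP 2 or RIP 4 (0.052 and 0.0062), without input 2 (0.11) and within libraries 3 and 4 (0.052), and ranged from -0.14 to 0.11 without 1 library. Smarca4 was -0.059 without input 2 (range without 1 library to 0.44) and -0.28 within libraries 3 and 4. Smarca2 ranged from -0.85 to -0.099 without 1 library. Within libraries 1 and 2, Smarca2 was 0.035, Smarcc1 0.20 and Smarcc2 0.24; without 1 library Smarcc1 ranged from -0.65 to 0.035 and Smarcc2 from -0.39 to 0.022, highest without input 3. The cause was not tested. Members with every RIP above every input library numbered 3 with library size alone, an alternative chosen after seeing the data. Equal numbers deviated together weakly (r = 0.16, 0.09, 0.18 and 0.12 for numbers 1 to 4), and 3 of 4 RIP libraries were closest to their own number. Within the same number group, r was 0.15 for RIP 1 with input 2 and -0.003 for RIP 2 with input 1. It was 0.14 for RIP 3 with input 4 and 0.27 for RIP 4 with input 3, the highest of all pairs. Pairing by number and a grouping of numbers were thus not told apart, and neither comes from the design. With the replicate number as a block, Smarcd3 had an edgeR adjusted p of 0.100. The share per coding length was not run, since no protein table was used here.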
